A study of Mus musculus with 12 samples.

Results

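The 10 genes described here are Nfkbia, Nfkb1, Nfkb2, Relb, Traf1, Tnfaip3, Birc3, Ptgs2, Icam1 and Vcam1, which encode parts of the NF-kB system, its feedback regulators and some of its endothelial targets. They were taken by name from the 14851 genes in the deposited tables, and all 10 passed the filter on low values in each comparison. RNA-sequencing compared 4 groups of 562 cells with 3 libraries in each, to ask how loss of autophagy changes gene expression in vascular tumor cells. 562 cells are a spontaneously immortalized line from a cutaneous tumor of a mouse in which tamoxifen had activated Scl-Cre, a Cre recombinase active in endothelial cells, to delete Tsc1, an inhibitor of mTORC1. The labels give the strain as C57BL/6, the tissue as lymphatic endothelial cells and the genotype of control cells as wildtype, but every group, control included, came from this Tsc1-deleted line. Control cells carried LentiCRISPR v2 with an sgRNA against EGFP. The KO cells carried sgRNAs against Fip200 (Fip200 KO, gene symbol Rb1cc1), against Atg5 (Atg5 KO) or against Atg7 (Atg7 KO), and all were selected with puromycin. The study describes 2 sgRNAs and 2 clones for Fip200, and the labels do not say which of them each library came from. All cells grew in the same endothelial medium, and no TNF or other treatment is named. The study calls its RNA replicates independent, and the labels do not say whether they were separate cultures, so the p-values measure the spread between these 3 libraries, part of which may be technical.

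NF-kB is a family of dimeric transcription factors that IkB proteins hold in the cytoplasm until TNF, interleukin-1 or other signals lead to the degradation of the IkB. Once in the nucleus, NF-kB switches on inflammatory and adhesion genes and also genes that shut the signal down or reshape it, such as those for IkB-alpha, A20 and cIAP2. In endothelial cells the targets include the adhesion molecules ICAM1, VCAM1 and E-selectin, by which leukocytes attach to the vessel wall, and the prostaglandin enzyme COX-2.

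The promoter sequences are shown because the members share this regulator, with windows from members that hold a match to its motif and from Traf1 and Ptgs2, which hold none. RefSeq promoters on GRCm38.p6, running from 250 bases before to 50 bases after the start, were at hand for 7 of the 10 members. Vcam1, Nfkb1 and Relb had no entry. Windows of 60 bases are printed 5′ to 3′ along the gene, and capitals mark a match on either strand to the kB consensus, a motif of 10 letters, or to GGAAATTCC.
Nfkbia, chr12:55492648-55492707, minus strand: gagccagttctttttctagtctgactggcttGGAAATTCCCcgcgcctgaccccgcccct
Nfkb2, chr19:46304677-46304736, plus strand: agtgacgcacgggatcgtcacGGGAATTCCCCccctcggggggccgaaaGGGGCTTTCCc
Tnfaip3, chr10:19015411-19015470, minus strand: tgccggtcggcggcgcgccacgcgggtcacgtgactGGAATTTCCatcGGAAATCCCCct
Icam1, chr9:21015762-21015821, plus strand: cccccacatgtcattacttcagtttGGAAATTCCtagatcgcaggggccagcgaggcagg
Traf1, chr2:34961773-34961832, minus strand: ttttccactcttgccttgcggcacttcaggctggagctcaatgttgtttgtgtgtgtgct
Ptgs2, chr1:150099971-150100030, plus strand: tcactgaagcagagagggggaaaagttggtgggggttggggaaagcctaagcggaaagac
Each window ends at the base before the start, except that of Icam1, which runs from -178 to -119. The 7 members had 10 promoters, Nfkb2 several of them, and windows come from the first of a gene. The kB consensus matched in 5 of the 10, those of Nfkbia, Nfkb2 and Tnfaip3, against 4.51% of all 32851 promoters of this length. GGAAATTCC matched at -29 to -21 in Nfkbia, inside its consensus match, at -24 to -16 on the reverse strand in Tnfaip3, and at -153 to -145 in Icam1, against 0.317% of all promoters. TGANTCA, the AP-1 site, was held by 7.81% of all promoters and by 2 of these 10, of Tnfaip3 and Nfkb2. In Nfkb2 it lay in a promoter other than the one printed. The promoters of Traf1, Birc3 and Ptgs2 held neither the consensus nor GGAAATTCC, which says only that these letters are absent from these windows. A match here is a description of the sequence and not evidence of a bound site.

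Between 17264989 and 23627944 reads were counted per library, and the members had from 102 to 99261 reads in a library. The targeted genes differed in what they showed. Rb1cc1 stood at 6.43, 8.27 and 7.73 RPKM in control and at 5.18, 6.84 and 2.06 in Fip200 KO, so the groups overlapped. Atg5 stood at 14.2, 11.1 and 10.6 in control and at 8.53, 15.6 and 12.6 in Atg5 KO, again with overlap, while Atg7 fell from 18.4, 25.0 and 19.8 to 5.40, 2.64 and 8.34 in Atg7 KO. Atg7 was also below all control libraries in Atg5 KO, at 9.99, 11.9 and 9.94 (log2 fold change -0.95, limma adjusted p = 0.00830), and ranged from 8.23 to 38.3 in Fip200 KO. RPKM are reads per kilobase of gene length, scaled to the total reads of the library, and replicates are given in the order 1, 2, 3 throughout. A guide cuts DNA and need not lower the RNA, so these levels do not settle whether a gene was inactivated. All 10 endothelial markers of the list stood at 1 RPKM or above in every library, and their summed level was 1315 to 3273 RPKM in control, 2360 to 3112 with Fip200 KO, 3219 to 3598 with Atg5 KO and 2626 to 3508 with Atg7 KO. The lymphatic markers Lyve1, Flt4 and Pdpn stood at 31.7 RPKM or above in every library, whereas Prox1, the transcription factor that defines lymphatic endothelium, ranged from 0.0366 to 5.79. Names of the libraries start with FY in control replicate 1 and all Fip200 KO, with JG in control replicates 2 and 3 and Atg5 KO replicates 1 and 2, and with Yang in Atg5 KO replicate 3 and all Atg7 KO. The labels do not say what the prefixes mark, and no Atg7 KO library shared its prefix with a control. In bulk RNA, fewer cells of a type and less RNA per cell cannot be told apart.

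Of the 10 members, Traf1 and Ptgs2 fell in Atg5 KO as well as Atg7 KO cells and Icam1 rose in Atg5 KO cells, while no member passed the test in Fip200 KO cells. A gene was called when its log2 fold change was -1 or lower or 1 or higher and limma's adjusted p did not exceed 0.1. The Atg5 KO cells thus had 2 members called lower and 1 called higher, where 6.94% and 4.31% of all tested genes were called. Atg7 KO cells had 2 called lower and 0 called higher, against 6.81% and 3.29% of all genes. In Fip200 KO cells 0 of 10 were called, and few genes were called at all, 1.64% lower and 0.347% higher, while 1904 of 11803 genes had an unadjusted p under 0.05. The median log2 fold change of the members against control was -0.53 for Fip200 KO, -0.32 for Atg5 KO and -0.62 for Atg7 KO cells, beside 0.02, 0.06 and -0.01 over all tested genes. The 3 comparisons share the same control libraries. Both Traf1 and Ptgs2 are among the genes that the study itself selected on these libraries, so their direction is not independent evidence.

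**Figure D1:**
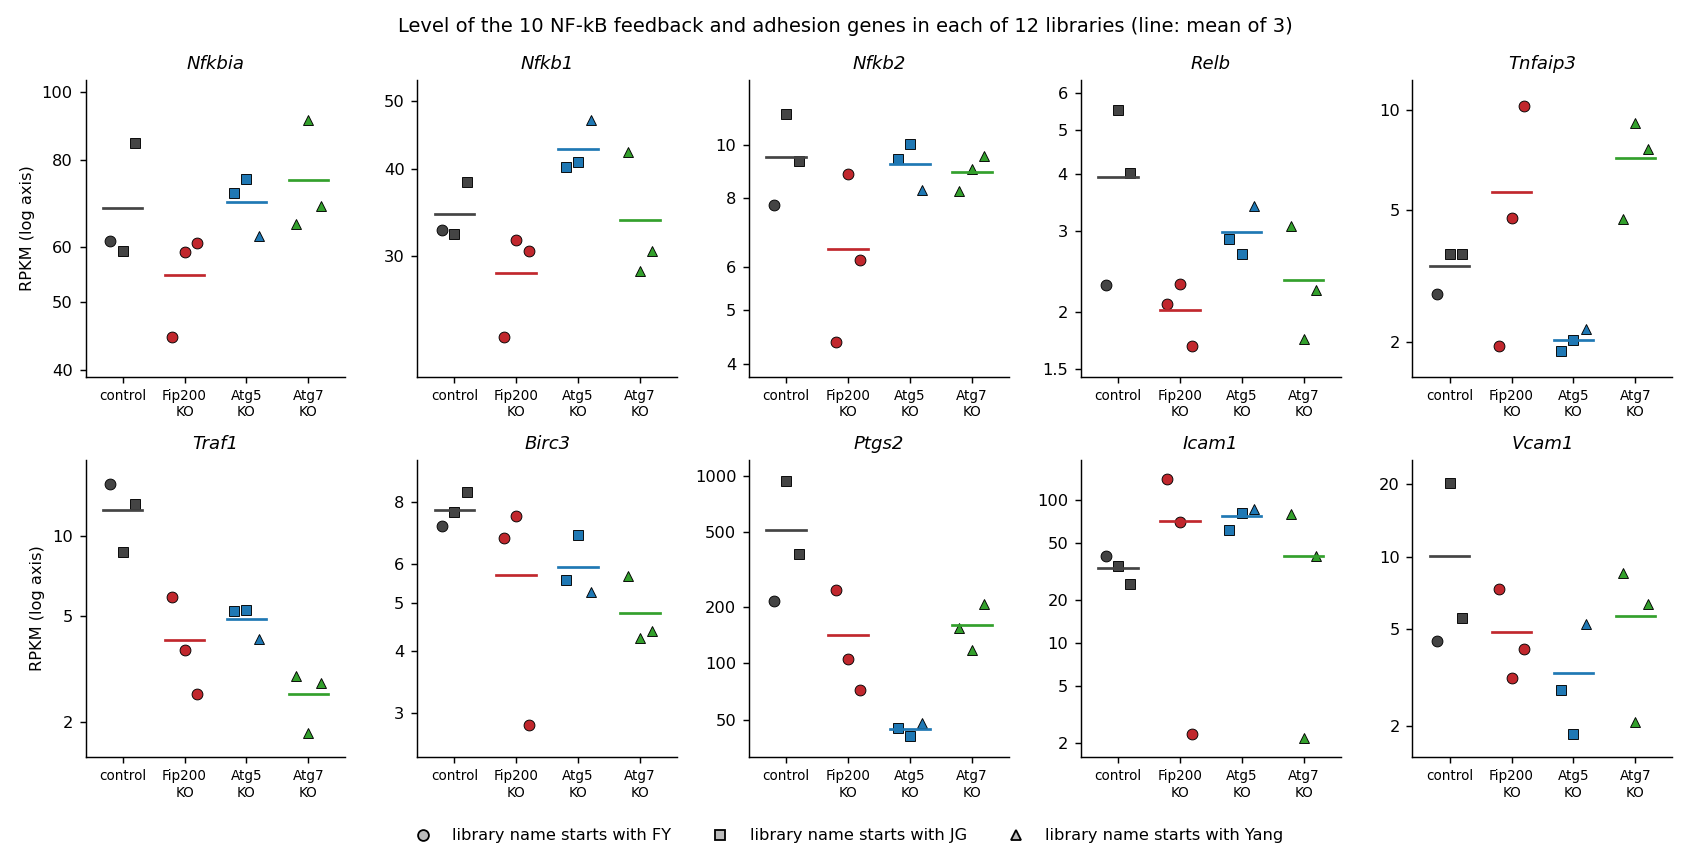
Level of each of the 10 members in every library, in RPKM on a log axis, with 1 point per library, a line at the mean of 3 and the marker shape giving the prefix of the library name. The control points of Traf1 lie above all 9 KO points, the Atg5 KO points of Ptgs2 lie together between 40.8 and 48.0 RPKM, and the points of Icam1 in Fip200 KO replicate 3 and Atg7 KO replicate 2 lie far below the rest.

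In the control cells Ptgs2 had by far the highest level of the members, with a mean of 513 ± 381 RPKM (SD, n = 3). Nfkbia followed at 68.3 ± 14.01, then Nfkb1 at 34.4 ± 3.33 and Icam1 at 33.7 ± 7.56, which lay within each other's spread. Traf1 at 12.5 ± 3.54, Vcam1 at 10.1 ± 8.81, Nfkb2 at 9.52 ± 1.82 and Birc3 at 7.71 ± 0.618 formed a group of neighbours whose ranges met. Relb at 3.94 ± 1.61 and Tnfaip3 at 3.39 ± 0.518 were the lowest and overlapped. Such an order compares levels per length, and each gene's share of reads that map elsewhere was not known.

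The core of the system moved little. Nfkbia encodes IkB-alpha, the inhibitor that NF-kB itself induces, and it stood at 61.2, 59.2 and 84.4 RPKM in control, 44.6, 59.01 and 60.7 in Fip200 KO cells, 71.7, 75.1 and 62.2 in Atg5 KO cells, and 64.7, 91.3 and 68.8 in Atg7 KO cells. All 3 KO groups overlapped control, and the log2 fold changes of -0.31, 0.04 and 0.14 had limma standard errors of 0.224, 0.162 and 0.205. Nfkb1 encodes the precursor p105 of the p50 subunit. Its level was 32.7, 32.3 and 38.3 in control, 23.0, 31.6 and 30.5 with Fip200 KO, 40.2, 40.8 and 47.0 with Atg5 KO and 42.3, 28.6 and 30.5 with Atg7 KO. Fip200 KO libraries therefore lay below every control library and Atg5 KO libraries above, by log2 -0.28 (SE 0.202, adjusted p = 0.508) and 0.31 (SE 0.119, adjusted p = 0.0926), with neither called and with 0.20 for Atg5 KO within the JG libraries. In Atg7 KO cells the groups overlapped, at -0.04 (SE 0.188).

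Nfkb2 and Relb encode the p100 precursor and the RelB subunit of the noncanonical arm of the pathway. Nfkb2 ranged from 7.79 to 11.4 RPKM in control, from 4.37 to 8.88 in Fip200 KO, from 8.29 to 10.0 in Atg5 KO and from 8.24 to 9.55 in Atg7 KO. Every KO group overlapped control, and the log2 fold changes were -0.56 (SE 0.300), -0.03 (SE 0.167) and -0.07 (SE 0.188) by limma. Exons of Nfkb2 share 12.58% of their bases with the opposite-strand gene AC114539.1 and 7.084% with Psd, and since the strand setting of the counting is not stated, part of its reads is uncertain. Relb had 2.29, 5.51 and 4.02 RPKM in control, 2.08, 2.31 and 1.69 with Fip200 KO, 2.89, 2.68 and 3.41 with Atg5 KO and 3.07, 1.75 and 2.23 with Atg7 KO. Control replicate 1 was as low as the KO libraries, so all groups overlapped, and the log2 fold changes of -0.75, -0.28 and -0.60 did not pass (limma adjusted p = 0.323, 0.476 and 0.240). Without control replicate 2, the highest Relb library, these values were -0.50, -0.029 and -0.34. With the prefix as a term in a fit of all 12 libraries they were -0.15, -0.67 and -1.15.

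Traf1, an adaptor of TNF receptors that NF-kB induces strongly, was lower in all 9 KO libraries than in any control library. It stood at 15.7, 8.69 and 13.1 RPKM in control, at 5.91, 3.73 and 2.54 with Fip200 KO, at 5.22, 5.27 and 4.10 with Atg5 KO and at 2.99, 1.82 and 2.81 with Atg7 KO. The mean in control was thus 3.08, 2.57 and 4.92 times that in the 3 KO groups. By limma the log2 fold changes were -1.54 (SE 0.351, adjusted p = 0.114), -1.25 (SE 0.229, adjusted p = 0.0114) and -2.08 (SE 0.274, adjusted p = 0.0103), so that Traf1 was called lower in the Atg5 and Atg7 KO cells and missed the threshold in Fip200 KO. Without Fip200 KO replicate 3 it was called there too, at -1.28 with an adjusted p of 0.0994. Within libraries of the same prefix the difference was -1.89 for the 3 Fip200 KO libraries against control replicate 1 and -0.96 for 2 Atg5 KO against 2 control libraries, each without overlap. With the prefix as a term in a fit of all libraries, Traf1 was not called in any KO, and the value for Atg7 KO was -1.58 (adjusted p = 0.427).

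Tnfaip3 went in opposite directions in Atg5 KO and Atg7 KO cells. It encodes A20, a ubiquitin-editing enzyme that ends NF-kB signaling, and had 2.80, 3.69 and 3.69 RPKM in control. In Atg5 KO cells it stood at 1.89, 2.04 and 2.19, below every control library, with a log2 fold change of -0.61 (SE 0.163, adjusted p = 0.0330), and in Atg7 KO cells at 4.71, 9.14 and 7.64, above every control library, with 0.94 (SE 0.266, adjusted p = 0.0580). Neither change reached the fold threshold, so neither was called, although the Atg7 KO value was called without replicate 1 of that group, at 1.20. With the prefix as a term the values were -0.77 for Atg5 KO and 0.70 for Atg7 KO (limma adjusted p = 0.473 and 0.841). The Fip200 KO libraries spread from 1.95 to 4.73 and 10.3, with 0.42 (SE 0.510), and without Fip200 KO replicate 3 the sign turned to -0.11. In the direct test Atg7 KO exceeded Atg5 KO by 1.55 (SE 0.432), which ranked 49 of 12233 genes by p but gave an adjusted p of 0.888. The 3 Atg7 KO libraries also lay above the Atg5 KO library of the same prefix, by 1.47.

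Birc3, which encodes the ubiquitin ligase cIAP2 of the TNF receptor complex, was lower by smaller amounts. Its level was 7.15, 7.62 and 8.37 RPKM in control, 6.77, 7.49 and 2.84 with Fip200 KO, 5.56, 6.86 and 5.27 with Atg5 KO and 5.66, 4.25 and 4.39 with Atg7 KO. Atg5 KO and Atg7 KO libraries lay below all control libraries, by -0.37 (SE 0.147, adjusted p = 0.10) and -0.65 (SE 0.182, adjusted p = 0.0572) in limma, and neither was called. Fip200 KO overlapped control, at -0.50 (SE 0.358), and its replicate 3 held the lowest level of the 12 libraries. Without that library the Fip200 KO value was -0.10.

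Ptgs2 encodes COX-2, the inducible cyclooxygenase of prostaglandin synthesis, and had the lowest log2 fold change of the 10 members in Fip200 KO and Atg5 KO cells, whereas in Atg7 KO cells that of Traf1 was lower. Control libraries held 215, 942 and 381 RPKM, and Atg5 KO libraries held 44.9, 40.8 and 48.0, so that the control mean was 11.5 times the Atg5 KO mean. In Atg7 KO cells the level was 155, 118 and 206, all below the lowest control library, and in Fip200 KO cells 245, 105 and 72.2, where replicate 1 lay above the lowest control library. The log2 fold changes by limma were -1.79 (SE 0.623, adjusted p = 0.233) for Fip200 KO, -3.25 (SE 0.482, adjusted p = 0.00680) for Atg5 KO and -1.45 (SE 0.507, adjusted p = 0.0966) for Atg7 KO, the latter 2 being called. Control replicate 2 held 61.2% of the control sum, and the Atg7 KO call was lost without it, at -0.88. That call was also lost without control replicate 3 (-1.53) or any of Atg7 KO replicates 1 (-1.45), 2 (-1.25) and 3 (-1.65), whereas the Atg5 KO call held without each of its own 6 libraries in turn, at -2.67 without control replicate 2. Within the JG libraries the Atg5 KO difference was -3.79, and with the prefix as a term it was still called (adjusted p = 0.0141). Within the FY libraries Fip200 KO differed from control replicate 1 by -0.81 with overlap, and for Atg7 KO the prefix term gave -2.11 (adjusted p = 0.481).

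Icam1, which encodes a ligand of leukocyte integrins, was called higher in Atg5 KO cells. It stood at 40.8, 34.4 and 25.8 RPKM in control and at 61.9, 81.3 and 86.8 in Atg5 KO, so every Atg5 KO library lay above every control library, with a log2 fold change of 1.18 (SE 0.203, adjusted p = 0.00954). The difference was 1.24 within the JG libraries. In a fit of all 12 libraries, with 1 estimate of the spread for all groups, it was not called, either without the prefix, at 1.18 (adjusted p = 0.598), or with the prefix as a term, at 1.24 (adjusted p = 0.740). The fold change ranged from 1.01 to 1.33 when each library was left out. Of the 10 endothelial markers, 4 were also called higher in Atg5 KO cells and 5 lay above all control libraries, beside 4.31% and 28.4% of all genes. Their median log2 fold change was 0.71. In the other KO groups 0 were called. There 1 lay above all control libraries in Fip200 KO (median 0.24) and 3 in Atg7 KO (median 0.60), beside 11.7% and 19.2% of all genes. What part the endothelial markers had in the Icam1 difference was not tested. Fip200 KO libraries held 140, 69.6 and 2.32 RPKM and Atg7 KO libraries 79.9, 2.17 and 40.3, so that each group held a library far below control beside others at or above it. The fold changes of -0.15 (SE 1.31) and -0.71 (SE 1.13) describe neither set of libraries. Without Fip200 KO replicate 3 the Fip200 KO value was 1.56 and was called higher (adjusted p = 0.0742), and without Atg7 KO replicate 2 the Atg7 KO value was 0.77 (adjusted p = 0.138). Exons of Icam1 share 20.158% of their bases with the opposite-strand gene Gm47079, so part of its reads is uncertain in the same way as for Nfkb2.

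**Figure D2:**
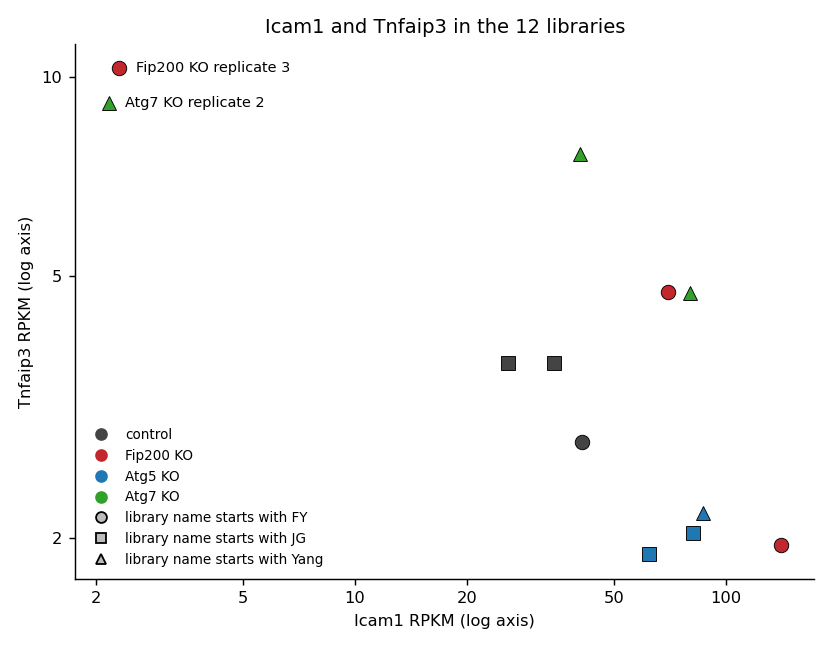
Icam1 against Tnfaip3 in each of the 12 libraries, both in RPKM on log axes, with colour giving the group and marker shape the prefix of the library name. Fip200 KO replicate 3 and Atg7 KO replicate 2 hold the lowest Icam1 and the highest Tnfaip3 of their groups, and the Atg5 KO libraries lie at high Icam1 and low Tnfaip3.

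The libraries with the lowest Icam1, Fip200 KO replicate 3 at 2.32 and Atg7 KO replicate 2 at 2.17, had the highest Tnfaip3 of their groups, at 10.3 and 9.14. Over the 12 libraries the log2 levels of Icam1 and Tnfaip3 had a Pearson r of -0.794, the most negative of the 45 pairs of members. Fip200 KO replicate 3 held the lowest level of its group for 5 of the 10 members and the highest for 2, and Atg7 KO replicate 2 for 7 and 2. Icam1, by which these libraries were picked, is itself counted among the lowest members. Of 103 other genes of the pathway that were tested, 44 were lowest and 37 highest in the first of these libraries, beside 36.2% and 39.8% of all tested genes. In the second, 55 were lowest and 31 highest, beside 46.6% and 33.8% of all tested genes. In both libraries 31 of the 103 were lowest, among them Selp, for P-selectin, and Bcl3, 18 were highest, among them Ikbkb, and 19 went opposite ways. Of all 11667 genes tested in both groups, 2369 were lowest in both, 1947 were highest in both and 2805 went opposite ways. Of the 10 endothelial markers 3 (Cdh5, Erg and Kdr) were highest in both, 1 (Eng) was lowest in both and 4 went opposite ways. Genes named here were chosen after their values were seen.

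Vcam1 encodes a ligand of the integrin VLA-4 and was not called in any KO. It stood at 4.47, 20.2 and 5.57 RPKM in control, at 7.35, 3.14 and 4.13 with Fip200 KO, at 2.82, 1.84 and 5.25 with Atg5 KO and at 8.59, 2.07 and 6.35 with Atg7 KO. All groups overlapped, with log2 fold changes of -0.75 (SE 0.571), -1.27 (SE 0.581) and -0.66 (SE 0.650) by limma. Control replicate 2 held 66.9% of the control sum, and without it the Fip200 KO value was -0.11, the Atg5 KO value -0.63 and the Atg7 KO value -0.018. With the prefix as a term they were 0.037, -2.01 and -2.09, none of them called, and within the JG libraries both Atg5 KO libraries lay below both control libraries. Without control replicate 1 the Atg5 KO value was called, at -1.66. Control replicate 2 had the highest Ptgs2 and also the highest levels of the fibroblast and mural cell genes Dcn, at 56.9 RPKM against 0.125 and 15.2 in control replicates 1 and 3, and Pdgfrb, at 4.19 against 0.0187 and 0.261. The summed level of 9 such markers ranged from 3.97 to 214 RPKM in control and from 2.6 to 37.8 in the KO cells, and Rgs5 was at 0 in every control, Fip200 KO and Atg5 KO library. Of the 3 markers tested in each comparison with control, not the same ones throughout, 0 were called lower. With Atg5 KO 1 was called higher (Acta2) and with Atg7 KO 1 (Col1a2). Acta2 averaged 1.39 RPKM in control and 6.03, 4.13 and 7.54 in the Fip200, Atg5 and Atg7 KO cells, and was lowest of the 12 libraries in control replicate 2. Col1a2 averaged 0.0154 RPKM in control and 0.281, 0.523 and 1.13 in the KO cells. It passed the filter for Atg7 KO through the KO libraries alone, so it could be called only higher. The part of these markers in the Vcam1 and Ptgs2 differences was not tested.

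**Figure D3:**
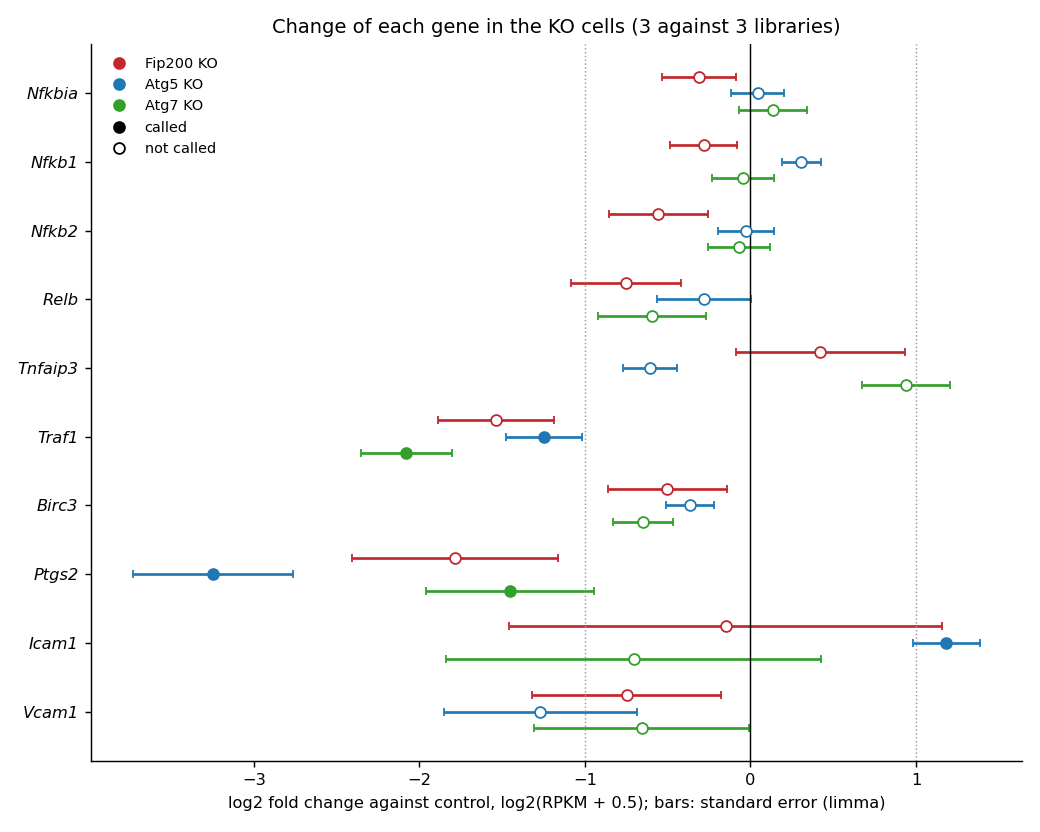
Log2 fold change of each member in each KO against control, on the log2(RPKM + 0.5) scale, with bars for the limma standard error and dotted lines at -1 and 1. Filled points mark the 5 calls, namely Traf1 and Ptgs2 in the Atg5 and Atg7 KO cells and Icam1 in Atg5 KO, and the widest bars are those of Icam1 in Fip200 KO and Atg7 KO.

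Counting members whose KO libraries did not overlap control, 2 were lower and 0 higher in Fip200 KO cells (Nfkb1 and Traf1), where 12.4% and 11.7% of all tested genes were lower or higher in this way. In Atg5 KO cells 4 were lower (Traf1, Tnfaip3, Birc3, Ptgs2) and 2 higher (Nfkb1, Icam1), against 22% and 28.4% of all genes. In Atg7 KO cells 3 were lower (Traf1, Birc3, Ptgs2) and 1 higher (Tnfaip3), against 20.4% and 19.2%. In these 3 comparisons with control, each count of members, called or without overlap, lay within 2 genes of what the share over all genes gives for 10 genes.

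Each KO was also set against the others in direct tests, and 0 of 10 members were called in any of the 3 comparisons. The same held for all 12233 tested genes, with 0% called in Atg5 KO against Fip200 KO, in Atg7 KO against Fip200 KO and in Atg7 KO against Atg5 KO, although 927, 916 and 562 genes had an unadjusted p under 0.05 in limma. Ptgs2 was higher in each Atg7 KO than in each Atg5 KO library, by 1.80 (SE 0.515, adjusted p = 0.888), and lower in Atg5 KO than in Fip200 KO without overlap, by -1.46 (SE 0.515, adjusted p = 0.573). Traf1 was lower in each Atg7 KO than in each Atg5 KO library, by -0.83 (SE 0.302), and overlapped between the other pairs. Atg7 KO against Fip200 KO gave -0.54 for Traf1, 0.52 for Tnfaip3 and 0.34 for Ptgs2, each with overlap. Nfkb1 was higher in Atg5 KO than in Fip200 KO without overlap, by 0.59 (SE 0.185, adjusted p = 0.528). Among the members 4 did not overlap in Atg5 KO against Fip200 KO, 1 in Atg7 KO against Fip200 KO and 3 in Atg7 KO against Atg5 KO, where 14.3%, 8.23% and 16.6% of all genes did not overlap. With 3 libraries against 3, an exact permutation test of a single gene could not go below a two-sided p of 0.1.

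The other genes of the pathway were called lower more often than higher, as were all tested genes. Of 126 listed genes that are no members, 117 were in the tables and 103 were tested in each comparison. Fip200 KO cells had 5 called lower and 0 higher, Atg5 KO cells had 21 and 3, and Atg7 KO cells had 14 and 2. Of all tested genes 1.64%, 6.94% and 6.81% were called lower in these groups and 0.347%, 4.31% and 3.29% higher. The median log2 fold changes of the listed genes were -0.28, -0.17 and -0.26. In 1 fit of all 12 libraries 9, 16 and 17 genes were called in place of 5, 24 and 16, and with the prefix added to that fit 1, 16 and 2. The genes called with the prefix were in part others. In Fip200 KO cells 0 were called without control replicate 2 or 3 and 11 without Fip200 KO replicate 3, and the other counts fell to 13 in Atg5 KO cells and 6 in Atg7 KO cells without control replicate 3. Summed leukocyte and macrophage markers were 106 to 113 RPKM in control, 20.5 to 284 with Fip200 KO, 22.8 to 26.2 with Atg5 KO and 17.6 to 32.4 with Atg7 KO, nearly all of it Cd68 and Cd14. The defining markers Ptprc and Adgre1 were at 0.13 RPKM or below in every library. Whether Cd68 and Cd14 had a part in the pathway counts was not tested.

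**Figure D4:**
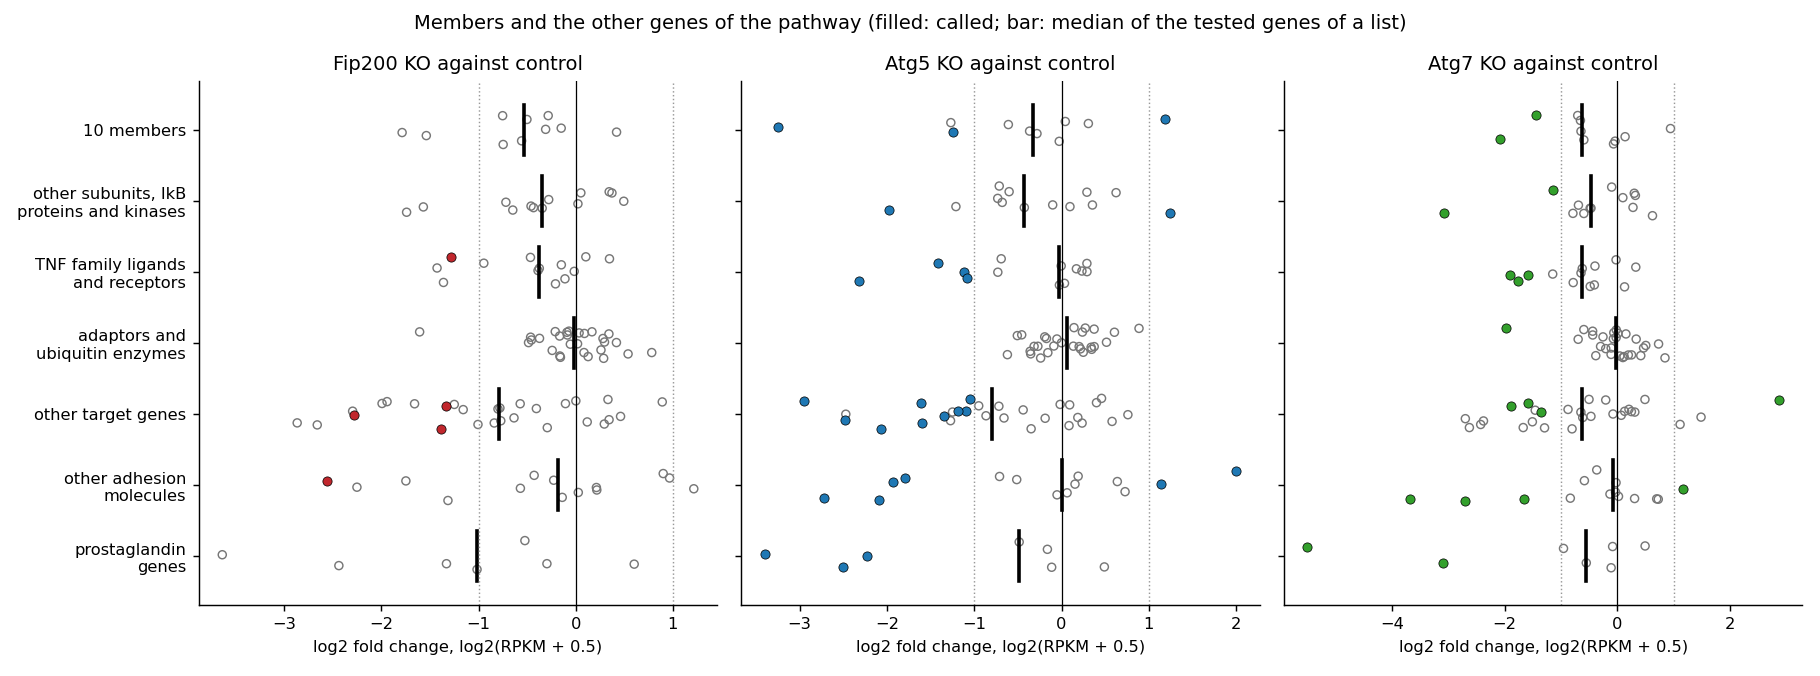
Log2 fold change against control of the 10 members and of the tested genes in 6 lists of other pathway genes, 1 panel per KO with its own scale, on the log2(RPKM + 0.5) scale. Filled points are called genes and bars are medians, and in Atg5 KO cells the list of other target genes holds 9 of the 21 listed genes called lower.

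Among the 13 other subunits, IkB proteins and kinases, 0 were called in Fip200 KO, 1 lower and 1 higher in Atg5 KO and 2 lower in Atg7 KO. All tested genes had 6.94% called lower and 4.31% higher in Atg5 KO, and 6.81% called lower in Atg7 KO. Bcl3, an IkB-like nuclear partner of p50 and p52, stood at 5.40, 37.6 and 28.2 RPKM in control at 2.96, 3.70 and 6.73 with Atg5 KO and at 2.62, 0.209 and 4.43 with Atg7 KO, with log2 fold changes of -1.98 and -3.07 (limma adjusted p = 0.0697 and 0.0625). Nfkbie, for IkB-epsilon, rose by 1.24 in Atg5 KO cells, and Rel, for the c-Rel subunit, was called lower in Atg7 KO cells at -1.14. The remaining genes of this list, Rela and the IKK kinases among them, were not called.

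Upstream of NF-kB, 13 ligands and receptors were tested, with 1, 4 and 3 called lower in the Fip200, Atg5 and Atg7 KO cells and 0 higher. The shares over all tested genes were 1.64%, 6.94% and 6.81% lower and 0.347%, 4.31% and 3.29% higher. Tnfrsf11a, for the receptor RANK, fell in all 3 KO groups, by -1.28, -2.33 and -1.90. It stood at 7.85, 6.23 and 6.32 RPKM in control and at no more than 2.64 in any KO library. Il1r1, for the interleukin-1 receptor, was lower by -1.08 in Atg5 KO and -1.59 in Atg7 KO, Tnfrsf9 by -1.41 and -1.76, and Tnfrsf1b, for TNF receptor 2, by -1.12 in Atg5 KO. Tnfrsf9 had 0.980 to 2.13 RPKM in control but at most 0.372 in Atg5 KO and 0.132 in Atg7 KO. It thus passed the filter through control alone and could be called only lower. Tnf itself was at 0.638 RPKM or below in every library and was not tested. Of 28 receptor adaptors and ubiquitin enzymes only Traf4 was called, in Atg7 KO cells, at -1.97, where 6.81% of all tested genes were called lower.

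Of 28 other target genes, 3, 9 and 3 were called lower and 0, 0 and 1 higher in the Fip200, Atg5 and Atg7 KO cells. Over all tested genes 1.64%, 6.94% and 6.81% were called lower and 0.347%, 4.31% and 3.29% higher. Cx3cl1, the chemokine fractalkine, fell by -2.29, -2.07 and -1.89, Tnfaip2 by -1.38, -1.62 and -1.35, and Fas, the death receptor, by -1.33, -1.35 and -1.59. Fas and Cx3cl1 are among the genes that the study selected on these libraries. Fas passed the filter through the control libraries, with at most 0.506, 0.539 and 0.418 RPKM in the Fip200, Atg5 and Atg7 KO cells. Tnfaip2 stood at 136 to 197 RPKM in control and at 28.9 to 78.5 in the KO libraries, so no library overlapped. Tnfaip8 was called in Atg5 KO only, at -1.09, and its difference from the other KO groups was not called. Ccl5, named after its value was seen, was the gene called higher, at 2.86 in Atg7 KO.

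Among the other adhesion molecules some were called lower and fewer higher. Of 14 tested, 1, 4 and 3 were called lower and 0, 2 and 1 higher in the Fip200, Atg5 and Atg7 KO cells. Over all tested genes the shares were 1.64%, 6.94% and 6.81% lower and 0.347%, 4.31% and 3.29% higher. Sele, for E-selectin, had 36.6, 38.7 and 71.5 RPKM in control, 29.1, 43.1 and 24.4 with Fip200 KO, 14.7, 15.1 and 10.0 with Atg5 KO and 16.8, 7.23 and 24.6 with Atg7 KO. Its log2 fold changes were -0.57, -1.80 and -1.65, and limma called it lower in the latter 2 (adjusted p = 0.00796 and 0.0549). Selp was called lower in the same groups, at -1.93 and -3.68, so that in Atg5 KO cells both endothelial selectins were lower while Icam1 was higher. Jam2 fell in all 3, by -2.56, -2.72 and -2.71, and Jam3, its partner in endothelial junctions, rose by 2.0 in Atg5 KO and 1.16 in Atg7 KO.

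Of 7 other genes of prostaglandin synthesis and its receptors, 3 were called lower in Atg5 KO, 2 in Atg7 KO and 0 in Fip200 KO, and 0 were called higher. The shares of all tested genes called lower in these groups were 6.94%, 6.81% and 1.64%. Ptgs1, for COX-1, stood at 57.0, 326 and 186 RPKM in control, 38.1, 15.7 and 2.40 with Fip200 KO, 8.10, 9.38 and 34.5 with Atg5 KO and 4.85, 0.631 and 5.76 with Atg7 KO. No KO library reached the lowest control library, and the log2 fold changes were -3.64, -3.40 and -5.50 (limma adjusted p = 0.161, 0.0189 and 0.0127). Ptges, for the prostaglandin E synthase that works with COX-2, was called lower at -2.51 and -3.10 in Atg5 KO and Atg7 KO. Control replicate 1 had 0.781 RPKM of it against 17.1 and 14.2 in replicates 2 and 3, so this difference rests on the control libraries of the JG prefix. Pla2g4a, for the phospholipase that releases arachidonic acid, was called lower in Atg5 KO at -2.23. Ptges3, for the cytosolic prostaglandin E synthase and named after its values were seen, lay above every control library in all 3 KO groups, by 0.60, 0.49 and 0.49, and was not called (limma adjusted p = 0.356, 0.0332 and 0.0838).

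**Figure D5:**
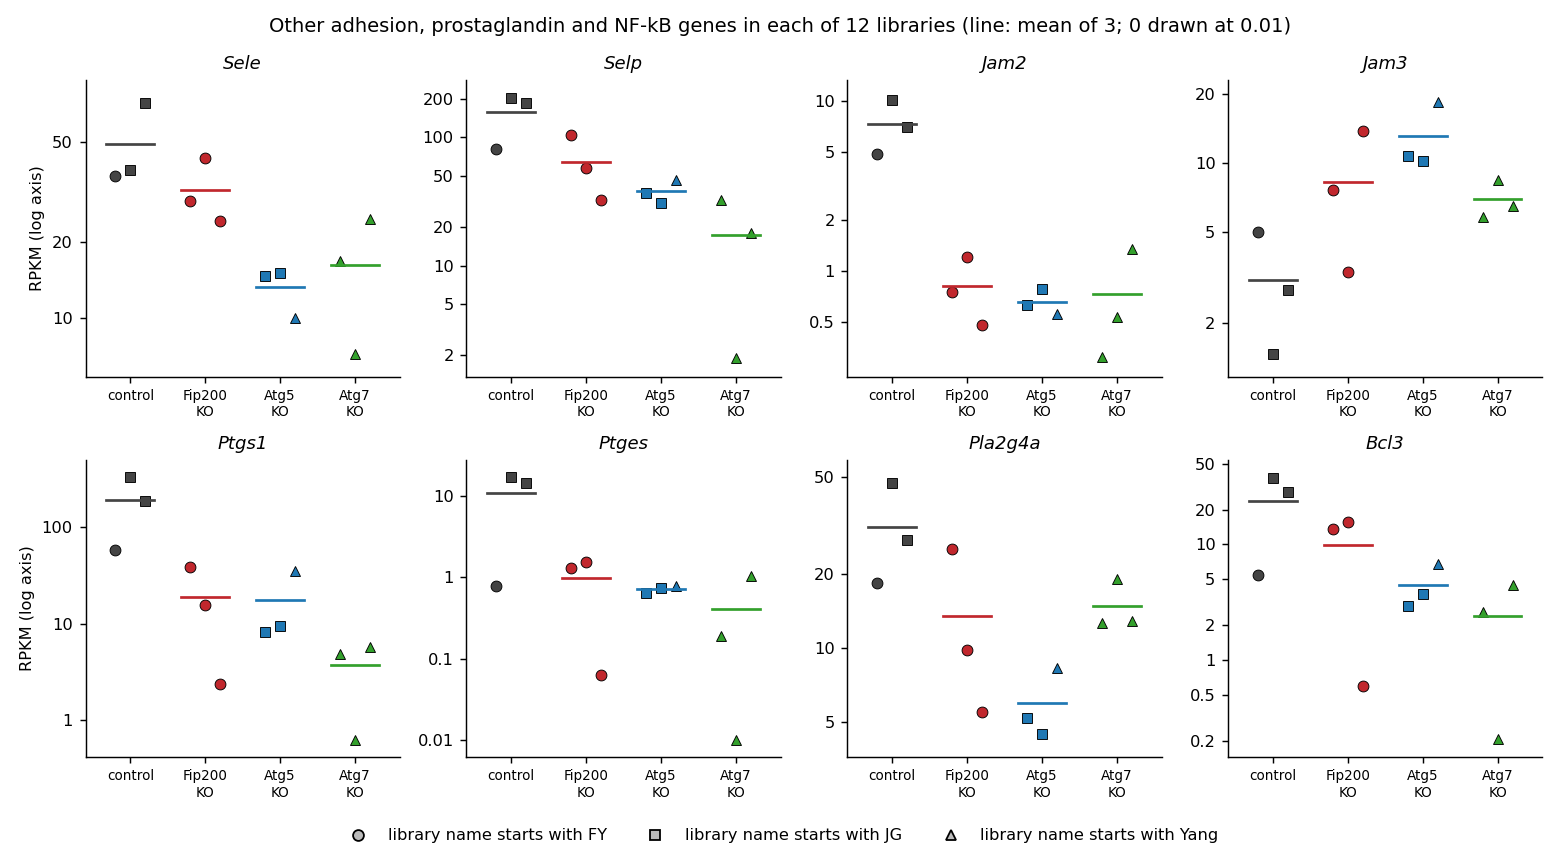
Level of 4 other adhesion genes, 3 other prostaglandin genes and Bcl3 in every library, in RPKM on a log axis, with a line at the mean of 3, marker shape for the prefix of the library name and a level of 0 drawn at 0.01. The control points of Jam2 and Ptgs1 lie above all KO points, and in Ptges and Bcl3 control replicate 1 lies near the KO points.

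Pairs of members differed in how alike they were across the libraries, and pairs of other genes were not taken for comparison. Of the 45 pairs, 10 had a Pearson r over 0.5 on log2 levels, 16 were below 0, and the median was 0.139. Traf1 was most like Birc3 (r = 0.747), Ptgs2 most like Vcam1 (0.779), Nfkbia most like Nfkb2 (0.646), Relb most like Vcam1 (0.619) and Icam1 most like Birc3 (0.652). These values describe 12 libraries that share groups, prefixes and single far-off libraries, and the likeness of Ptgs2 and Vcam1 includes control replicate 2, the highest library in both. Outside the list, Tmem86a, Plekhm2 and Npc2 had the pattern most like the mean standardised level of the members, with r of 0.933, 0.921 and 0.920 among 12223 genes. Npc2, for a lysosomal cholesterol-binding protein, stood at 117, 197 and 175 RPKM in control and at 48.2 to 90.0 in the KO libraries.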

How the data were processed

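RNA-sequencing libraries of 562 cells, 3 each of control and of the Fip200, Atg5 and Atg7 KO, were analysed from 3 tables with the same control libraries in each. Per the methods and labels, the authors used a directional kit, aligned with TopHat2, counted reads per transcript and tested with edgeR. Genome build, annotation, versions and strand setting are not given in the sources used here. The authors deposited RPKM per library, a unit read from the values, since whole reads came back for all 14851 genes within 0.01 read, 20 of them without reads. The deposited group means, fold changes, log2 fold changes and p-values hold the authors' own comparisons and were not used.

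Genes at 0.5 RPKM or more in at least 3 compared libraries were tested on log2(RPKM + 0.5) by limma with a trend, in 6-library fits against control and 1 fit of all 12 for KO against KO. Fold changes on this scale understate those of low genes. P-values were Benjamini-Hochberg adjusted over all tested genes, and a call needed 0.1 or less together with a log2 fold change of 1 or more up or down. The test was checked on simulated data.

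Named were all members, the targeted genes and, of each pathway list, up to 4 called genes by smallest adjusted p. Members, lists and tests were chosen with earlier results of these data known. Promoter letters are RefSeq sequences on GRCm38.p6, and exon overlaps are from GENCODE M21. Alternatives were pseudocounts of 0.1 and 1, no filter, median-of-ratios scaling, a replicate block, the library-name prefix as a term, 1 fit of all libraries and leaving out each library. The work used limma 3.58.1 in R 4.3.3, and pandas 2.3.3, numpy 2.4.6, matplotlib 3.10.9 and scipy 1.17.1 in Python 3.11.15.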

Additional observations from a re-analysis of the deposited data

Results flagged for a closer look

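A pair of members went in opposite directions in different KO cells, each without overlap with the control libraries. Over all tested genes 22% lay below and 28.4% above all control libraries in Atg5 KO. These shares were 20.4% and 19.2% in Atg7 KO and 12.4% and 11.7% in Fip200 KO. How many of all genes went opposite ways was not counted. Tnfaip3, for A20, was above all control libraries in Atg7 KO and below all of them in Atg5 KO, a log2 difference of 1.55, for which the direct limma test gave an adjusted p of 0.888. Under the alternatives tried the difference lay between 1.36 and 1.80. Its steady sign adds nothing, since Tnfaip3 was flagged because its KO libraries lay on opposite sides of all control libraries. Nfkb1, for p105, was above all control libraries in Atg5 KO and below all of them in Fip200 KO, a log2 difference of 0.59 with an adjusted p of 0.528. Adding the prefix of the library names to the fit gave differences of 1.47 for Tnfaip3 and 0.42 for Nfkb1 (both uncalled).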

How the results depend on the processing

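The 498 recomputed log2 fold changes cover all members against control and, between KO cells, Tnfaip3, Ptgs2 and Traf1, chosen with the values known. Of these, 459 kept their direction and their side of the threshold, most of them uncalled throughout. Another 21 turned sign, 12 lost a call and 6 gained a call without a turn of sign. Members called in Fip200 KO rose from 0 to 2 in 1 fit of all 12 libraries (Traf1, Ptgs2) and ranged from 0 to 2 when each library was left out. In Atg5 KO they numbered 3, 2 in 1 fit of all libraries (Icam1 lost) and 1 (Ptgs2) with the prefix added to that fit, and ranged from 3 to 4. In Atg7 KO they rose from 2 to 3 with a pseudocount of 0.1 (Tnfaip3 gained, as higher), fell to 1 without the filter or with the replicate block and ranged from 1 to 2, with 2 in 1 fit of all libraries and 0 with the prefix added. The other pathway genes called in Fip200 KO numbered 3 without the filter, 1 with the replicate block, 1 with the prefix and 9 in 1 fit of all libraries, and ranged from 0 to 11. They ranged from 13 to 29 in Atg5 KO and from 6 to 22 in Atg7 KO, where 1 fit of all libraries called 17. With the prefix added to that fit 2 were called in Atg7 KO, Cxcl1 and Cxcl5, neither of them among the 17. Replicate numbers do not pair the samples, with correlations of same-numbered deviations between -0.218 and 0.077, and the block changed no other call among the members. Among the values given above, signs turned in these cases, with an uncalled value in each but Icam1 without Fip200 KO replicate 3. With the prefix as a term, Vcam1 in Fip200 KO was 0.037, Nfkb2 in Atg7 KO 0.020, and Atg7 KO against Fip200 KO 0.31 for Traf1 and -1.30 for Ptgs2. Median-of-ratios scaling gave -0.013 for Nfkbia in Atg5 KO. Leaving out each library gave -0.11 to 0.96 for Tnfaip3 and -1.26 to 1.56 for Icam1 in Fip200 KO, -0.050 to 0.20 for Nfkbia and -0.16 to 0.11 for Nfkb2 in Atg5 KO, and in Atg7 KO -0.015 to 0.30 for Nfkbia, -0.21 to 0.065 for Nfkb1, -0.20 to 0.062 for Nfkb2 and -1.69 to 0.77 for Icam1. For Atg7 KO against Fip200 KO it gave -0.019 to 1.05 for Tnfaip3 and -0.045 to 0.83 for Ptgs2. Causes were not tested. KO against KO gave 0 member calls under every alternative run, and uncalled KO against KO values not given above also turned sign for Nfkbia, Nfkb1, Nfkb2, Relb, Birc3, Icam1 and Vcam1. The lowest member counts, 102 to 179 reads in a library, were in Icam1, Relb, Traf1, Vcam1, Birc3 and Tnfaip3.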
